A study of Saccharomyces cerevisiae with 6 samples.

Results

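The mitochondrial genome of budding yeast and its 8 protein genes, COX1, ATP8, ATP6, COB, OLI1, VAR1, COX2 and COX3, were examined in whole-genome sequencing libraries of synchronised cells. All bins of chrM were taken, 86 of 11665 bins in the files, covering the 85779 bases of the sacCer3 mitochondrial sequence in steps of 1 kb with a last bin of 779 bases. Mitochondrial DNA lies outside the nucleus, is present in many copies per cell, and is copied by its own DNA polymerase, Mip1, without the origin recognition complex or the once-per-cycle licensing of nuclear origins. Its protein genes encode membrane subunits of the respiratory chain and of ATP synthase, plus 1 protein of the mitochondrial ribosome. The genome is rich in A and T between its genes, and COX1, COB and the large ribosomal RNA gene carry self-splicing introns, several of which encode maturases or homing endonucleases.

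Cells of the laboratory strain W303-1a carried 1 of 3 genotype labels: WT, Orc2DeltaN200, named for loss of the N-terminal 200 residues of the origin recognition subunit Orc2, and Orc2194E, the point mutant that the design text calls orc2-I194E. One library was made per genotype and time, 6 in all: at 0 min, while α-factor still held the cells in G1, and 30 min after its removal, in S phase. All cultures went from YPG medium through an α-factor arrest, then a nocodazole arrest in YPD in which orc2-1 was depleted, and a further α-factor arrest, and sodium azide was added at harvest. The labels do not give the promoter of orc2-1 or the number of clones per genotype. The study asked how the Orc2 variants alter replication of the genome, and mitochondrial DNA served here as DNA outside that question that was read in the same libraries.

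Libraries held 3235720 to 3376203 counts, of which 265792 to 370410 lay on chrM, so that a median chrM bin had 2823 to 4032 counts against 255 to 273 in a kept nuclear bin. The targeted locus did not keep its level between times under 2 of the labels. In the ORC2 bin at 361001 to 362000 of chromosome II, the count relative to the flanking DNA was 2.64 at 0 min and 1.8 at 30 min for WT, and 1.76 and 2.68 for Orc2194E, while Orc2DeltaN200 had 1.70 and 1.85. Libraries are therefore named by their labels, and the chrM share, the calls of chrM bins, the changes of the 8 genes and of groups of bins, and the differences from WT were also computed with these 2 labels exchanged at 30 min. Intervals are 95% intervals and cover counting error only.

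Mitochondrial DNA made up 7.95% to 11.2% of the counts, and it did not move in 1 direction from 0 to 30 min. The chrM share was 11.2% at 0 min and 9.68% at 30 min for WT, 7.95% and 9.25% for Orc2DeltaN200, and 9.69% and 9.88% for Orc2194E. Exact binomial intervals were narrow, at most 11.16% to 11.22% for the WT library at 0 min. The lowest and the highest library were both 0 min libraries, and the 3 libraries at 30 min lay between them. The log2 ratio of 30 to 0 min was -0.21 (-0.22 to -0.20) for WT, 0.22 (0.21 to 0.23) for Orc2DeltaN200 and 0.028 (0.021 to 0.035) for Orc2194E.

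With the genotypes taken as the spread, the means were 9.61% ± 1.62 (SD, n = 3) at 0 min and 9.60% ± 0.320 (SD, n = 3) at 30 min. An exact two-sided permutation test gave p = 0.9 (0.97 after Benjamini-Hochberg adjustment over 14 measures tested in this way). The test is unpaired and leaves out the pairing of times by genotype. The smallest p that 3 against 3 libraries allow is 0.1. With the labels WT and Orc2194E exchanged at 30 min, the paired log2 ratios became -0.18 from the WT library at 0 min and -0.0012 from the Orc2194E library at 0 min.

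Relative to nuclear DNA, the mean chrM count per kb was 16.6 times the median nuclear bin at 0 min and 14.2 times at 30 min for WT. It was 11.4 and 13.5 times for Orc2DeltaN200, and 14.1 and 14.6 times for Orc2194E. These ratios were not calibrated to copies per cell. Part of the nuclear genome is duplicated at 30 min, and in bulk DNA more mitochondrial genomes and fewer nuclear genomes cannot be told apart.

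**Figure D1:**
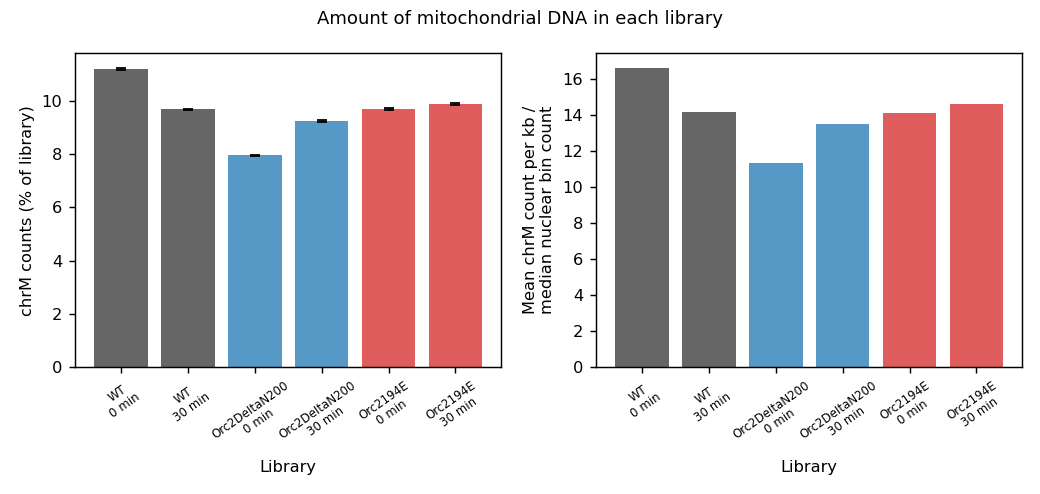
Left, chrM counts as a percentage of each library, with bars for the exact 95% binomial interval; right, the mean chrM count per kb divided by the median count of kept nuclear bins, without error bars, for the 6 libraries (1 per genotype label and time). The WT library at 0 min is the highest at 11.2% and the Orc2DeltaN200 library at 0 min the lowest at 7.95%.

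Every bin held counts in every library, but coverage was uneven along the mitochondrial genome, with gene bodies standing above the DNA between them. Stretches without reads inside a 1-kb bin would not be seen. No bin was empty, and none fell under 0.25 of the library's chrM median. The coefficient of variation over the 85 full bins was 32.9% (WT, 0 min), 34.6% (WT, 30 min), 38.5% (Orc2DeltaN200, 0 min), 37.0% (Orc2DeltaN200, 30 min), 38.6% (Orc2194E, 0 min) and 41.4% (Orc2194E, 30 min). The highest bin held between 5.75 and 7.69 times the count of the lowest.

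From here on a level is the count per base of a bin or gene divided by the mean count per base of chrM in the same library, so that 1 is the chrM average and the amount of mitochondrial DNA drops out. Bins with at least 50% of their bases in 1 of the 8 genes, 24 in all, had a median level of 1.45 (1.01 to 1.78, means over the 6 libraries). The 5 bins lying mostly in ribosomal RNA genes had a median of 1.33 (0.908 to 1.57). One full bin lay mostly in another gene (1.11). The remaining 55 full bins, which lie mostly between genes, had a median of 0.774 (0.282 to 1.47). Among these, the 15 with a tRNA gene had a median of 0.874 and the 40 without had 0.719. Base composition was not computed, since no genome sequence was used here.

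Bins of the 8 genes stood above bins lying mostly between genes by a factor that differed between libraries. The latter 55 bins include parts of genes, up to 46.1% of a bin at 36001 to 37000 in COB. The mean level in the 24 gene bins over that in these 55 bins was 1.69 and 1.74 at 0 and 30 min for WT. It was 1.87 and 1.82 for Orc2DeltaN200, and 1.87 and 1.99 for Orc2194E. Both WT libraries were lower than the other 4. The same kind of ratio in nuclear DNA, between 3920 bins at least 95% covered by genes and 2042 bins under 50% covered, was 1.04, 1.01, 1.05, 1.03, 1.04 and 1.04 in the order WT, Orc2DeltaN200 and Orc2194E with 0 min first. Regressed on the mean log2 level of the other 5 libraries, the profile had a slope of 0.889 and 0.929 for WT at 0 and 30 min, 1.01 and 0.987 for Orc2DeltaN200, and 1.05 and 1.12 for Orc2194E. The relief was thus shallowest in the 2 libraries labelled WT and deepest in that labelled Orc2194E at 30 min. With these labels exchanged at 30 min, the deepest library and the shallowest would both be WT, so no order of the genotypes can be read from it. The part of base composition or of library preparation in this was not tested.

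The low stretches recurred in all libraries. Under 0.5 of the chrM median lay 4 bins in 5 of the libraries and 5 bins in the Orc2DeltaN200 library at 0 min. Those found in every library were 29001 to 30000, which holds the last bases of ATP6, the neighbouring pair from 33001 to 35000, and 56001 to 57000, before the large ribosomal RNA gene. The lowest of all, 33001 to 34000, had levels of 0.281 and 0.30 at 0 and 30 min for WT, 0.296 and 0.313 for Orc2DeltaN200, and 0.255 and 0.246 for Orc2194E. It still held 917 to 1214 counts, and the annotation names no gene in it. Of the other full bins, 12001 to 13000, also without a gene, was the lowest, at a mean of 0.470, and the short last bin, which holds RPM1, stood at the same mean.

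The 5 highest bins all lay in protein genes. They were 16001 to 17000 in COX1 (mean level 1.78), 43001 to 44000 (1.77), 42001 to 43000 (1.74) and 38001 to 39000 (1.68) in COB, and 79001 to 80000 in COX3 (1.61).

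**Figure D2:**
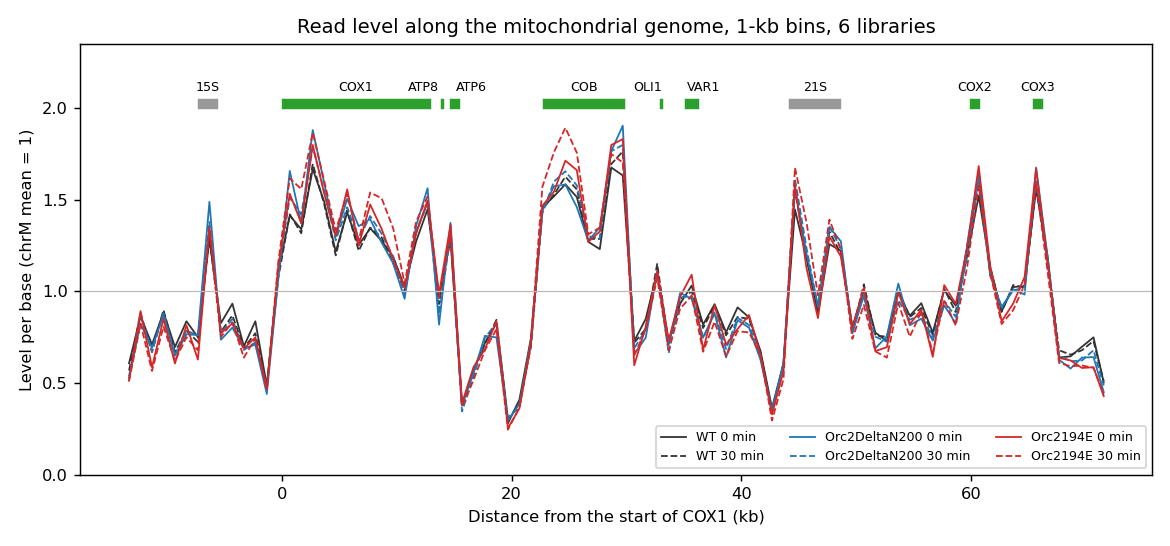
Level per base (chrM mean = 1) of the 86 bins of the mitochondrial genome against distance from the start of COX1 in kb, 1 line per library; solid lines are 0 min and dashed lines 30 min, and bars at the top mark the 8 protein genes (green) and the 2 ribosomal RNA genes (grey). The 6 lines share their hills over genes and their low stretches, and the Orc2194E library at 30 min stands above the others over parts of COX1, COB and the large ribosomal RNA gene.

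The 8 genes together spanned 27.9% of the mitochondrial genome and took 37.7% and 38.1% of chrM counts in the WT libraries at 0 and 30 min. They took 39.4% and 39.0% at Orc2DeltaN200 and 39.7% and 41.0% at Orc2194E. Counts were given to a gene by the share of each bin that it covers, so genes much shorter than a bin carry the level of their surroundings. Among the 8 only COX1, COB and VAR1 filled at least 1 whole bin.

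COX1, COX2 and COX3 encode the core of cytochrome c oxidase, the complex that passes electrons to oxygen. COX1 (Q0045, 13818 to 26701 on sacCer3) is the longest gene of the genome and covers 12 whole bins. Its level was 1.33 at 0 min and 1.33 at 30 min for WT, 1.4 and 1.38 for Orc2DeltaN200, and 1.39 and 1.47 for Orc2194E. The Orc2194E library at 30 min was the highest and both WT libraries the lowest.

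COX2 (Q0250, 73758 to 74513), which carries the copper site that receives electrons from cytochrome c, had levels of 1.42 and 1.48 for WT, 1.53 and 1.48 for Orc2DeltaN200, and 1.54 and 1.44 for Orc2194E. It fills at most 51.3% of a bin, and the bin with most of it stood at 1.61. COX3 (Q0275, 79213 to 80022) had the highest mean level of the 8 genes, with 1.55 and 1.57 for WT, 1.66 and 1.59 for Orc2DeltaN200, and 1.66 and 1.57 for Orc2194E. For neither gene was the Orc2194E library at 30 min the highest.

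COB (Q0105, 36540 to 43647) encodes cytochrome b of complex III, which passes electrons from ubiquinol to cytochrome c. Its level was 1.48 and 1.52 at 0 and 30 min for WT, 1.53 and 1.55 for Orc2DeltaN200, and 1.57 and 1.64 for Orc2194E. As at COX1, the Orc2194E library at 30 min was the highest and the WT libraries the lowest.

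ATP6, ATP8 and OLI1 encode subunits of the membrane sector of ATP synthase, and OLI1 makes the subunit of its proton-driven ring. OLI1 (Q0130, 46723 to 46953) had levels of 1.11 and 1.15 for WT, 1.11 and 1.11 for Orc2DeltaN200, and 1.11 and 1.07 for Orc2194E. ATP6 (Q0085, 28487 to 29266) had 0.973 and 0.998 for WT, 1.03 and 0.976 for Orc2DeltaN200, and 1.03 and 0.985 for Orc2194E. The gene straddles 2 bins of very different level, 1.32 for the one with most of it and 0.374 for the next, so its mean rests on where its counts fall within them.

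ATP8 (Q0080, 27666 to 27812) covers 14.7% of a single bin, and its levels are those of that bin, 0.976 and 0.931 for WT, 0.819 and 0.877 for Orc2DeltaN200, and 0.987 and 0.964 for Orc2194E. Both Orc2DeltaN200 libraries were the lowest there. VAR1 (Q0140, 48901 to 50097) encodes the protein of the small subunit of the mitochondrial ribosome that is made from this genome. Its levels were 1.01 and 0.980 for WT, 0.946 and 0.956 for Orc2DeltaN200, and 1.05 and 0.946 for Orc2194E.

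Ordered by mean level over the 6 libraries, COX3 stood at 1.60 ± 0.0484 (SD, n = 6), COB at 1.55 ± 0.0536, COX2 at 1.48 ± 0.0481, COX1 at 1.38 ± 0.0509, OLI1 at 1.11 ± 0.0245, ATP6 at 1.00 ± 0.0273, VAR1 at 0.981 ± 0.0407 and ATP8 at 0.926 ± 0.0655. The step from COX1 to OLI1, 0.274 ± 0.0719 within a library, was the largest and held in 6 of 6 libraries, as did OLI1 over ATP6 (0.109 ± 0.0333). COX3 and COB differed by less than the spread of their difference (0.0508 ± 0.0647, higher in 5 of 6), as did COB and COX2 (0.0680 ± 0.0685, 6 of 6) and ATP6 and VAR1 (0.0195 ± 0.0430, 4 of 6). COX2 stood above COX1 by 0.0975 ± 0.0664 and VAR1 above ATP8 by 0.0548 ± 0.0484, each in 5 of 6 libraries. The order rests on how counts are given to short genes. With only the bin that holds most of each gene, ATP6 (1.32) stood above OLI1 (1.11) and COX2 (1.61) above COB (1.53), so that the step from COX1 (1.38) to the next gene, ATP6, was small.

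**Figure D3:**
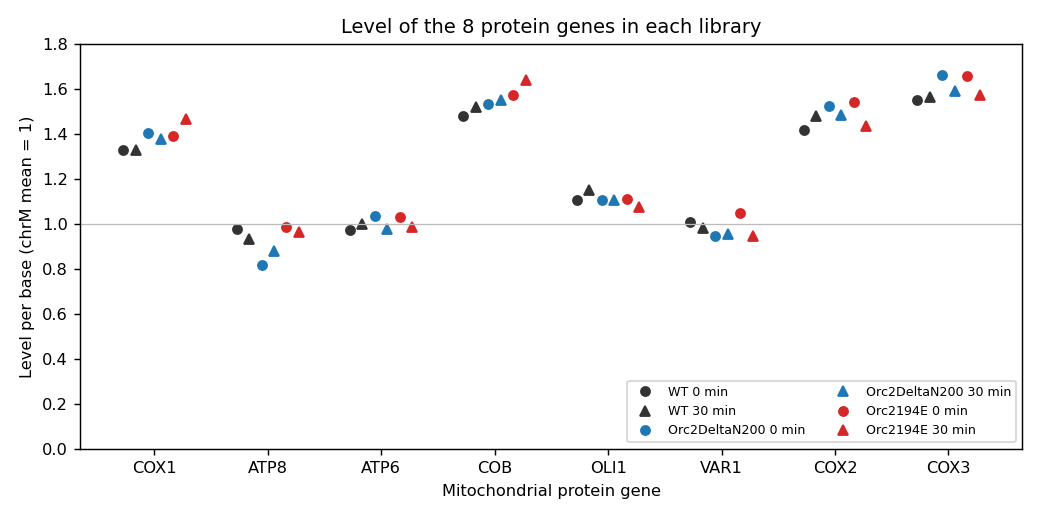
Level per base (chrM mean = 1) of the 8 mitochondrial protein genes in each of the 6 libraries; colours are genotype labels, circles 0 min and triangles 30 min, 1 library per point and no error bars. COX3, COB, COX2 and COX1 lie above 1.3 in every library, and at COX1 and COB the Orc2194E library at 30 min is the highest of the 6.

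COX1 and COB were not level inside. In COX1 the mean level ran from 1.01 in the bin 24001 to 25000, which lies mostly in the intron reading frame AI5_BETA, to 1.78 at 16001 to 17000. In COB the bins ran from 1.29 at 40001 to 41000 to 1.77 at 43001 to 44000. Among reading frames that the annotation starts at the first exon and carries on into an intron, those of COX1 (AI1 to AI5_ALPHA) had mean levels of 1.44 to 1.5 and those of COB (BI2, BI3 and BI4) 1.5 to 1.59. These frames overlap each other and their host genes, so their counts are not independent. SCEI, the homing endonuclease frame inside the large ribosomal RNA gene, stood at 1.33. The other genes of chrM were lower, with 1.25 ± 0.0527 (SD, n = 6) for the large ribosomal RNA gene (21S), 1.11 ± 0.0485 for the small one (15S) and 0.470 ± 0.0349 for RPM1, the RNA of mitochondrial RNase P, whose only bin is the last of the genome.

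Within chrM, no bin passed the test for a change from 0 to 30 min over the 3 genotypes. In edgeR's quasi-likelihood fit over all bins of the genome, with genotype as a block and chrM scaled to its own total, 0 of 86 chrM bins were called at an adjusted p under 0.05 (Benjamini-Hochberg over 11521 bins), where 3.33% of all bins were called (1.96% higher and 1.37% lower). At an unadjusted p under 0.05, met by 19.2% of all bins, there was 1 chrM bin, 59001 to 60000 in the 21S gene (log2 0.11 ± 0.047 SE, adjusted p = 0.178). DESeq2 called 0, with 0 at an unadjusted p under 0.05. Relative to the whole library the same edgeR fit called 0 of 86, with 3.81% of all bins called and 0 chrM bins at an unadjusted p under 0.05, met by 18.9% of all bins, and DESeq2 again called 0 with 0 at that unadjusted limit. In that fit the median log2 change of chrM bins was 0.013. Every chrM bin carries the change of the chrM total there, which differed in sign between genotypes. The SE at 59001 to 60000 was thus 0.19 against 0.047 within chrM, and the 86 bins are not separate tests. Genotype by genotype, 0 of 86 chrM bins held a higher share of the library at 30 min at WT, 86 of 86 did at Orc2DeltaN200 and 46 of 86 did at Orc2194E. These counts largely restate the changes of the chrM totals.

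Levels of the 8 genes overlapped between the times in unpaired tests, which leave out the pairing by genotype. Of the exact permutation tests of 0 against 30 min, 1 for each gene, the lowest p was 0.3, for VAR1 (1.00 ± 0.0515 at 0 min and 0.961 ± 0.0174 at 30 min, SD, n = 3 each), and the adjusted p of every gene was at least 0.97. Within genotypes, COB stood higher at 30 min in 3 of 3 pairs (log2 0.036, 0.014 and 0.059 at WT, Orc2DeltaN200 and Orc2194E), as did the 21S gene (0.050, 0.016 and 0.15). With the labels exchanged, COB stood lower from the Orc2194E library at 0 min (-0.051).

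As labelled, changes within chrM were smaller for WT and Orc2DeltaN200 than for Orc2194E. The log2 ratio of 30 to 0 min ran from -0.12 to 0.11 over bins at WT (SD over bins 0.050) and from -0.13 to 0.14 at Orc2DeltaN200 (SD 0.062). At Orc2194E it ran from -0.20 to 0.29 (SD 0.098). With the labels WT and Orc2194E exchanged at 30 min, the SD over bins was 0.15 from the WT library at 0 min and 0.10 from the Orc2194E library at 0 min, so the order of these labels turned. The counting standard error of a bin lay between 0.025 and 0.066, and 17, 24 and 45 of 86 bins in that order lay beyond their own counting interval. Across labels, 10 bins stood higher at 30 min under all 3 labels and 8 stood lower.

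At Orc2194E 34 of 86 bins stood higher at 30 min, 18 of them beyond their counting interval. Of these 18, 16 touch COX1, COB or the 21S gene, and the others were 6001 to 7000, at the 15S gene (log2 0.11 ± 0.041 counting SE), and 44001 to 45000, between genes (0.13 ± 0.042). The ratios were highest at 2 places in COX1 and at 1 each in COB and the 21S gene. The first was at 15001 to 16000 in COX1, where the level was 1.37 at 0 min and 1.56 at 30 min (log2 0.18 ± 0.028 counting SE). The WT and Orc2DeltaN200 libraries had 1.32 to 1.42 there. The next lay over 22001 to 24000, also in COX1, with log2 ratios of 0.17 and 0.20 in its bins. In COB the bins from 36001 to 40000 had 0.099, 0.19, 0.14 and 0.080, and 40001 to 41000 had 0.046. In the 21S gene the bin 59001 to 60000 went from 1.13 to 1.38 (log2 0.29 ± 0.030 counting SE), the highest ratio of any bin. WT had 1.184 and 1.185 in that bin and Orc2DeltaN200 1.21 and 1.24, so the 30 min libraries did not stand apart there outside Orc2194E. In the same gene, 58001 to 59000 had 0.083 and 60001 to 61000 had 0.20. The choice of these places followed from their values.

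The bins that stood lower at 30 min at Orc2194E lay mostly between genes, and some of their ratios were as large as those of most of the higher bins. The lowest ratios were -0.20 ± 0.036 (counting SE) at 72001 to 73000, which holds a tRNA gene, and -0.19 ± 0.045 at 30001 to 31000, with no gene. Over the 3 genotypes, the fitted log2 change was lowest at 30001 to 31000 (-0.087 ± 0.051 SE), followed by 47001 to 48000 (-0.075), 29001 to 30000 at the end of ATP6 (-0.067), 67001 to 68000 (-0.066) and 72001 to 73000 (-0.064). It was highest at 59001 to 60000, given above, then at 22001 to 23000 in COX1 (0.082), 38001 to 39000 in COB (0.082), 58001 to 59000 in the 21S gene (0.079) and 39001 to 40000 in COB (0.077). None of these passed the threshold in edgeR's quasi-likelihood test, the lowest adjusted p being 0.178.

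**Figure D4:**
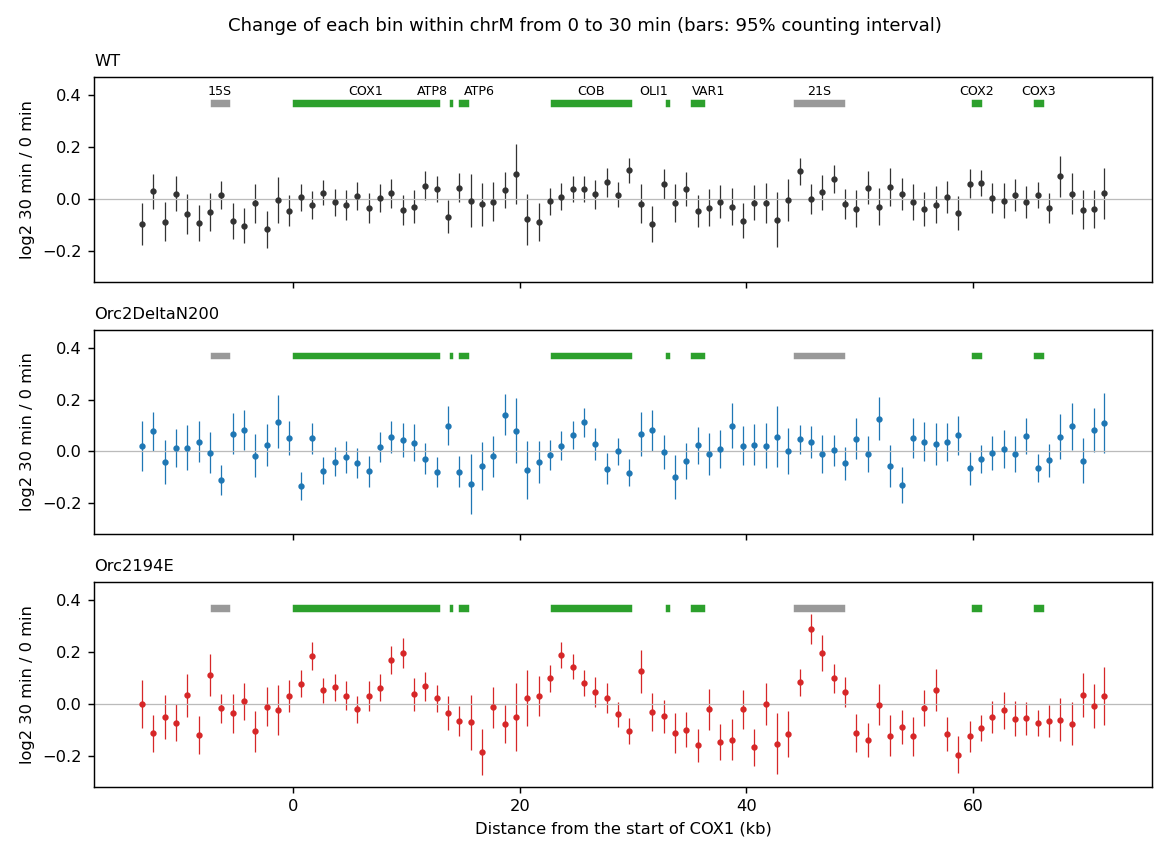
Log2 ratio of the chrM share at 30 min to that at 0 min for each of 86 bins, 1 panel per genotype label, against distance from the start of COX1 in kb; vertical lines are 95% counting intervals, and bars mark the 8 protein genes (green) and the ribosomal RNA genes (grey). Orc2194E reaches 0.29 in the 21S gene and -0.20 between genes, while WT and Orc2DeltaN200 stay between -0.13 and 0.14.

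The Orc2194E library at 30 min stood high over the genes that carry introns. Over the 27 bins that touch COX1, COB or the 21S gene, this library was the highest of the 6 in 18 and the lowest in 0, with a median of 0.081 (log2) above the mean of the other 5. Over the 11 bins that touch ATP8, ATP6, OLI1, VAR1, COX2 or COX3 it was the highest in 0 and the lowest in 5, with a median of -0.050. Over the 48 bins with none of these genes it was the highest in 0 and the lowest in 24, with a median of -0.094. The WT library at 0 min was the reverse in the first and last set, highest in 0 of 27 and 26 of 48 bins and lowest in 13 and 1. As shares of 1 total, bins of a library cannot all rise. The division by these genes was made after the values were seen and was not tested.

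The 8 protein genes did not share a direction in this pair of libraries. From 0 to 30 min at Orc2194E, the log2 ratio was 0.075 ± 0.0076 (counting SE) for COX1 and 0.059 ± 0.0095 for COB, against -0.15 ± 0.029 for VAR1 and -0.10 ± 0.021 for COX2. ATP6 had -0.067, COX3 -0.074, OLI1 -0.049 and ATP8 -0.034, the last 2 within their counting intervals. Of the RNA genes, 21S had 0.15 ± 0.014, while 15S (0.0033 ± 0.023) and RPM1 (0.029 ± 0.057), which carry no intron and are shorter, lay within theirs. At WT the ratios of the 8 genes lay between -0.068 (ATP8) and 0.062 (COX2), and at Orc2DeltaN200 between -0.083 (ATP6) and 0.099 (ATP8). Each is a difference of 2 single libraries. With the labels WT and Orc2194E exchanged at 30 min, COX1 and COB had 0.14 and 0.15 from the WT library at 0 min, and -0.065 and -0.051 from the Orc2194E library at 0 min, so the sign of both genes turned for the latter. From that Orc2194E library VAR1 (-0.097), COX2 (-0.059), COX3 (-0.081), ATP6 (-0.048) and ATP8 (-0.083) stayed below 0. OLI1 (0.051) was then the only one of the 8 genes above 0, so the opposite directions of COX1 and COB against the other genes depend on the labels. Over the 27 bins of COX1, COB and the 21S gene, 27 then stood higher from the WT library and 6 from the Orc2194E library, against 18 and 24 as labelled.

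**Figure D5:**
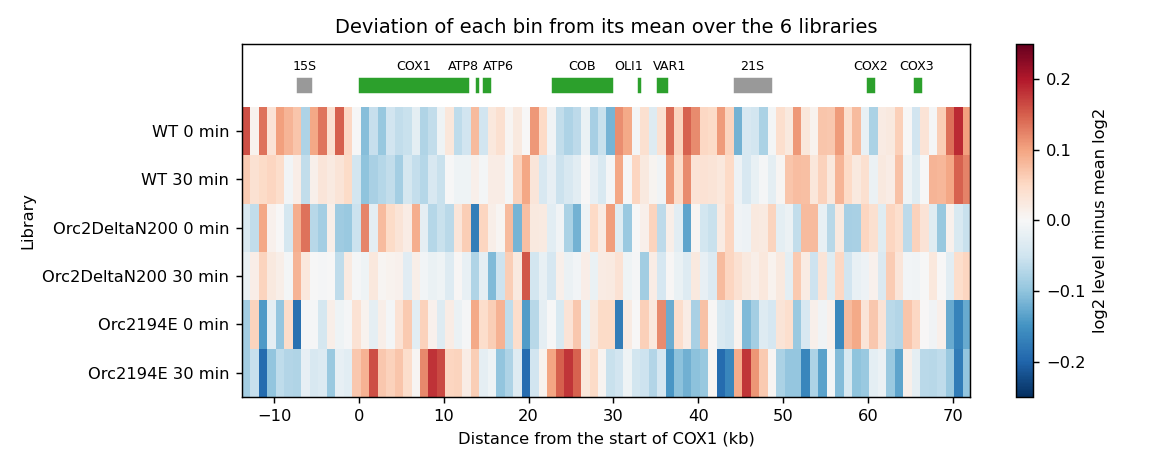
Log2 level of each of 86 chrM bins minus its mean over the 6 libraries (colour), 1 row per library, against distance from the start of COX1 in kb; bars mark the 8 protein genes (green) and the ribosomal RNA genes (grey). The Orc2194E library at 30 min is red over nearly all of COX1 and the 21S gene and over most of COB, and blue over most DNA between genes, and both WT libraries are mostly blue over COX1.

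Between genotypes, with both times of a label in 1 fit, 1 bin passed the test. For Orc2DeltaN200 against WT, the within-chrM fit called 0 of 86 chrM bins, where 0.00868% of all bins were called. At an unadjusted p under 0.05, met by 6.48% of all bins, there were 12, and DESeq2 called 0 with 7 at that limit. These 12 became 0 without the Orc2DeltaN200 library at 0 min, 1 without the WT library at 0 min, 2 with the labels exchanged and 21 without either Orc2194E library. For Orc2194E against WT it called 1 of 86, where 0.0174% of all bins were called, and 30 had an unadjusted p under 0.05, met by 6.57% of all bins. These 30 became 0 with the labels exchanged and 18 to 39 without any single library. A median chrM bin had 2823 to 4032 counts against 255 to 273 in a kept nuclear bin. The shares of chrM bins and of all bins under the unadjusted limit therefore compare bins of unlike depth. The bin called, 84001 to 85000, holds no annotated gene and lies just before the bin of RPM1. Its level was 0.750 and 0.730 at 0 and 30 min for WT, 0.642 and 0.679 for Orc2DeltaN200, and 0.587 and 0.584 for Orc2194E. The Orc2194E libraries were the lowest and the WT libraries the highest, without overlap. It was lower in Orc2194E by a log2 change of -0.34 ± 0.058 (SE, adjusted p = 0.001098 in edgeR's quasi-likelihood test). The spread of each bin in this fit is drawn towards a trend over all bins tested, most of them nuclear, and the SE and p-value rest on it. With 1 library per genotype and time, the 2 times of a genotype stand in for replicates in this fit. A difference between genotypes therefore cannot be told apart from one between their cultures. DESeq2 called 0 chrM bins (lowest adjusted p = 0.1072, with 25 at an unadjusted p under 0.05), and exchanging the labels WT and Orc2194E at 30 min left 0 calls (lowest adjusted p = 0.714).

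The differences from WT can be described over the same division of bins. The division was drawn from these libraries, and the fit of Orc2194E against WT holds them too, so its counts largely restate the pattern above and are no support for it. For Orc2194E, the fitted log2 difference was above 0 in 26 of 27 bins of COX1, COB and the 21S gene (median 0.081), in 6 of 11 bins of the other genes (median 0.0040) and in 2 of 48 of the remaining bins (median -0.089), which include the called bin. For Orc2DeltaN200 it was above 0 in 22 of 27 (median 0.054), 6 of 11 (0.00023) and 6 of 48 (-0.064). The 2 comparisons share the WT libraries, so their differences are not independent and neither is support for the other. By mean log2 level, with the labels WT and Orc2194E exchanged at 30 min, the difference was above 0 in 6 of 27, 9 of 11 and 29 of 48 bins, so the direction in the first and last set turned. After the called bin, the lowest adjusted p values for Orc2194E were 0.0619 at 50001 to 51000, which holds the end of VAR1 (log2 -0.26 ± 0.057), and 0.0722 at 2001 to 3000 (log2 -0.26 ± 0.058), both lower.

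The profiles of the libraries were nearly alike, though beyond counting error. Over 85 full bins the Pearson correlation of counts lay between 0.975 and 0.996 for the 15 pairs of libraries, as a description, since bins share their base composition in all of them. Libraries of 1 label at its 2 times differed by 2.30 times the Poisson variance for WT, 2.99 times for Orc2DeltaN200 and 9.39 times for Orc2194E. The lowest value was that of the WT pair, and the WT and Orc2DeltaN200 libraries at 30 min were also close, at 2.90. Pairs with the labels WT and Orc2194E exchanged stood at 21.9 (WT at 0 min with Orc2194E at 30 min) and 7.42 (Orc2194E at 0 min with WT at 30 min). Neighbouring bins deviated together in some pairs and not in others. The correlation of the log2 ratio between a bin and the next was 0.53 in the Orc2194E pair, 0.039 in the WT pair and 0.039 in the Orc2DeltaN200 pair. Between labels the highest values all involved the Orc2194E library at 30 min, with 0.71 against WT at 30 min, 0.68 against WT at 0 min and 0.48 against Orc2DeltaN200 at 30 min. The WT and Orc2DeltaN200 libraries at 30 min had 0.42, and the correlation was lowest, at -0.13, for the Orc2DeltaN200 and Orc2194E libraries at 0 min.

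Nuclear genes for the same complexes and for upkeep of mitochondrial DNA were read as single-copy DNA in the same libraries. For 44 such genes, the bin with most of each gene had a median of 1.01 times the median nuclear bin (0.781 to 1.27). In the whole-library fit of 30 against 0 min, 0 of 9 bins of complex IV genes, 0 of 9 of complex III and 0 of 12 of ATP synthase were called. Of 14 genes for upkeep of mitochondrial DNA, 3 were called higher and 1 lower, against 2.60% and 1.21% of all bins. RPO41, the mitochondrial RNA polymerase (log2 0.30, adjusted p = 0.032), MGM101, a recombination protein of mitochondrial nucleoids (0.34, adjusted p = 0.029), and SUV3, an RNA helicase of the mitochondrial degradosome (0.28, adjusted p = 0.043), were higher at 30 min. MTF1, the specificity factor of that polymerase, was lower (-0.30, adjusted p = 0.043). The level of MGM101 over the median nuclear bin was 0.827 and 0.820 at 0 and 30 min for WT, without a rise. It was 0.714 and 0.977 for Orc2DeltaN200, and 0.689 and 1.04 for Orc2194E. RPO41 had 1.04 and 1.13 for WT, 1.08 and 1.20 for Orc2DeltaN200, and 0.919 and 1.42 for Orc2194E. SUV3 stood higher and MTF1 lower at 30 min under all 3 labels. DESeq2 called 0 of all bins in this comparison, and these calls depend on the setting. These are DNA levels of chromosomal loci during S phase, not expression.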

How the data were processed

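Per the labels' protocols, a DNBseq instrument read libraries of genomic DNA made with PCR. The deposited files give whole-number counts per 1-kb bin, unscaled. Build sacCer3, R 4.3.0, bedtools 2.31.0, SAMtools 1.18, Picard 2.27.5 and Bowtie2 2.5.3 are listed per the submitters' processing notes, without roles. Filters, duplicate treatment and handling of reads that match several places are not given in the sources used here. Gene positions came from a RefSeq table of assembly R64, that of sacCer3, without strands or exons.

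Kept nuclear bins (11273 of 11579) lay outside the rDNA, had counts in all libraries and 0.3 to 3 times the median at 0 min. Counts were tested with edgeR 4.0.16 (quasi-likelihood, filterByExpr, TMM or, within chrM, offsets of the chrM and nuclear totals; model genotype + time, 2 residual degrees of freedom) and DESeq2 1.42.0 in R 4.3.3, and otherwise with Python 3.11.15 and SciPy 1.17.1. The threshold was an adjusted p of 0.05. The edgeR fits were tested for the change with time on simulated data. Those data had a lower dispersion than the common value estimated here (0.0026 with TMM, 0.0021 within chrM). They held no difference between genotypes, so the genotype comparisons were not part of that test. No culture was replicated. P-values of the genotype + time fits rest on how far the change between times differs between genotypes, and on spread borrowed from other bins. In edgeR the spread of each bin is drawn towards a trend over all bins tested, most of them nuclear. Its p-values and SEs therefore do not rest on the 2 residual degrees of freedom of a bin alone. P-values of the permutation tests rest on the spread between single libraries of 3 genotypes. PCR reads are not independent molecules.

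Named were the 8 genes, the 5 highest and lowest bins, and the 5 with the largest rise and fall. Members and lists were chosen with earlier results of these data known. Other settings were the model, filter, scaling, tool, threshold, libraries used, exchanged labels and gene assignment.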

Additional observations from a re-analysis of the deposited data

Results flagged for a closer look

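The chrM share of the library stood in opposite directions between labels, each beyond its counting interval, with a log2 ratio of 30 to 0 min of -0.21 at WT against 0.22 at Orc2DeltaN200 and 0.028 at Orc2194E. With the labels WT and Orc2194E exchanged at 30 min, it was -0.18 from the WT library at 0 min and -0.0012 from the Orc2194E library at 0 min. The difference between labels was not tested, as each label has 1 library per time. Within chrM, COX1 also stood in opposite directions beyond its counting interval, with 0.075 at Orc2194E and -0.026 at Orc2DeltaN200. This did not hold with the labels exchanged, where COX1 had -0.065 from the Orc2194E library at 0 min. COX2 had 0.062 at WT and -0.10 at Orc2194E. With the labels exchanged, COX2 had 0.020 from the WT library and -0.059 from the Orc2194E library at 0 min. The bin of ATP8 had -0.068 at WT and 0.099 at Orc2DeltaN200. None of these differences between labels was tested.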

How the results depend on the processing

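Of the 83 values recomputed under other settings, 61 kept their direction and their side of the threshold or stayed within the spread over libraries or the counting interval. Some of the 61 could not change, as a count of 0 calls stays 0 at the stricter threshold of 0.01. DESeq2 called 0 of all bins in every comparison, so its 0 for chrM bins is not particular to chrM. The difference in chrM share between 30 and 0 min was -0.0084 percentage points. In another unit, multiples of the median nuclear bin, the means were 14.0 at 0 min and 14.1 at 30 min, a difference of 0.0805. These 2 values have opposite signs but cannot be compared in size. In percentage points the difference ran from -0.661 to 0.743 when a genotype was left out (0.743 without WT). No value of p was below the 0.05 threshold in any of them, which 3 against 3 libraries or fewer cannot reach. The single bin called for Orc2194E against WT was lost in DESeq2 (0 calls) and with the labels exchanged at 30 min (0 calls), and it was the same bin in every other setting, with an adjusted p of 0.00089 to 0.0211, also without the Orc2194E library at 30 min (0.0080). The settings that leave out a single library were chosen after seeing the data. The cause was not tested. The other counts of called chrM bins stayed at 0. Over all bins, calls for 30 against 0 min relative to the library numbered 439, but 0 in DESeq2, 59 at a threshold of 0.01, 286 without the genotype block and 17 to 75 when a genotype was left out. Within chrM scaling they numbered 384, but 0, 32, 226 and 12 to 675 in the same order. Against WT, calls over all bins went from 1 to 191 (Orc2DeltaN200) and from 2 to 313 (Orc2194E) without the WT library at 0 min. With only the bin holding most of the gene, ATP6 moved from 1.00 to 1.32 and COX2 from 1.48 to 1.61. With a chrM total that leaves out the 5 highest bins, levels became 1.45 (COX1), 1.05 (ATP6), 1.62 (COB), 1.16 (OLI1), 1.03 (VAR1), 1.55 (COX2) and 1.67 (COX3), as the smaller total makes them. Low bins summed over libraries numbered 0 under 0.25 of the median and 25 under 0.5. The main model pairs the times by genotype, and without this block, with time alone, 0 chrM bins were called. With the labels exchanged at 30 min, a setting added for the genes after seeing the data, COX1 turned from 0.075 to -0.065 and COB from 0.059 to -0.051 from the Orc2194E library at 0 min. Depth limits single bins to counting errors of 0.025 to 0.066 on the log2 scale, and the 1-kb bins limit the short genes.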
